A study of Mus musculus with 5 samples.

Results

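The 10 genes described here encode the D-type cyclins Ccnd1, Ccnd2 and Ccnd3, the E-type cyclins Ccne1 and Ccne2, the A-type cyclin Ccna2, the B-type cyclins Ccnb1 and Ccnb2, and the cyclin-dependent kinases Cdk1 and Cdk4. They were listed by name for their role in the cell cycle, with no rule on their values but with earlier results of these data known, and are 10 of the 31053 genes counted in each library. They were followed in 5691 hepatocytes of mouse liver. A hepatocyte was a barcode with at least 5000 unique molecular identifiers (UMIs, each standing for 1 captured RNA molecule), of which 10% to 30% came from mitochondrial genes and at least 1% from the plasma protein genes Alb, Apoa1 and Ttr together.

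Cyclins are regulatory subunits that are made and destroyed in turn, and a cyclin-dependent kinase is active when bound to one. D-type cyclins with Cdk4 or Cdk6 respond to growth signals and begin the inactivation of the retinoblastoma protein, E-type cyclins with Cdk2 complete it at the start of DNA replication, cyclin A acts through replication and into G2, and cyclin B with Cdk1 drives mitosis. Adult hepatocytes rarely divide, but most of them re-enter the cycle after partial hepatectomy, and induction of cyclin D1 is the classical mark of their passage through G1.

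The samples were liver cells of C57BL/6J mice, captured in droplets with a 10x v3 kit and sequenced as 5 libraries, 1 per group: an untreated postnatal day 14 (P14) library, an adult control, and adults at 24, 48 and 96 h after a 2/3 partial hepatectomy (PHx) performed at 8 weeks of age. All cells came from a 2-step perfusion and were passed through a dead cell removal kit, so survival of both steps was a condition of being counted. The treatment text counts the adult control as operated, but its title and source name, and the lack of a treatment entry, make it a control, and it was used as one. Its description carries the lane code L002 and the other 4 carry L001, so that code and the control cannot be told apart. Sex and the number of animals per library were not given.

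With 1 library per group there was no replicate and no test. Every interval below is a 95% interval for counting error only (exact Poisson for a level, exact conditional binomial for a ratio of levels, Clopper-Pearson for a share). It does not cover differences between animals. Intervals of levels and ratios treat UMIs as independent, and do not cover the gathering of UMIs of a gene in few cells. UMI counts of all hepatocytes of a library were summed, and a level is given as counts per 1e6 UMIs (CPM) outside the 13 mitochondrial genes. A gene was called higher or lower between libraries when log2((CPM + 1)/(CPM + 1)) reached 1, a 2-fold difference, among genes with at least 5 CPM in either library.

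The gate held 2106 hepatocytes at P14, 925 from the adult control, and 1170, 719 and 771 after 24, 48 and 96 h, with median depths of 18527 to 38922.5 UMIs per cell and 13316829 to 64576753 non-mitochondrial UMIs per library. The limits passed from 21.3% (96 h) to 72.4% (P14) of the barcodes with at least 5000 UMIs, and the limit on Alb, Apoa1 and Ttr alone left out 2 to 9 barcodes a library. The mitochondrial limits left out more: barcodes just above the upper one numbered 164 (24 h) to 547 (96 h) a library. With no lower one the gate held 1498 cells after 24 h in place of 1170, and 1455 after 96 h in place of 771. No alternative setting raised the upper limit, so its part in the values below was not tested. The 10 further hepatocyte markers that the gate did not use were all above 5 CPM in every library and summed to 27875 to 46788 CPM. RNA of other cells was present: erythroid markers summed to 124 to 762 CPM and neutrophil markers to 11.3 to 198 CPM, in both cases below the free RNA of the same library (309 to 6376 and 18.6 to 1644 CPM), cholangiocyte markers to 36.9 to 238 CPM, and T or NK, B, myeloid, endothelial and stellate markers to 1.98 to 46.8 CPM. Only the stellate markers at P14 (46.8 against 24.2 CPM) and the B markers in the adult control (8.79 against 6.97 CPM) were above the free RNA of their library. That stellate sum was mostly Reln (45.6 CPM), and no other stellate marker was above 0.650 CPM at P14. The cholangiocyte sums were nearly all Tstd1 and Sox9 (232 and 5.87 CPM at P14). Krt19, Epcam and Krt7 were at most 0.418 CPM in any library. In the adult control Reln made up 2.63 of the 5.48 CPM of stellate markers, with Dcn at 1.58 CPM, and the free RNA held 24.2 CPM. Whether these sums hold RNA of cholangiocytes or stellate cells was not tested. Free RNA, read from near-empty droplets, amounted to 290 (48 h) to 1328 (adult control) UMIs per droplet. Across libraries 3 hepatocyte barcodes were shared, 2 between P14 and the adult control and 1 between P14 and 48 h.

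RefSeq promoters (GRCm38.p6, from 250 bases before to 50 bases after the start) were matched for 6 of the 10 genes (not for Ccna2, Ccnd1, Ccnd2 or Ccne2), Ccnd3 with a pair of alternative starts. The motifs searched on both strands were CCAAT (the box bound by NF-Y), TTTGAA or its variant TTCGAA (forms of the cell-cycle homology region), and for E2F sites GCGGGAA or the variant GCGCGAA. Ccnb1, Ccnb2 and Cdk1 are shown because their promoters held CCAAT 2, 3 and 3 times. Matches are in capitals, written on the strand of the gene, so that CCAAT on the opposite strand reads ATTGG and GCGCGAA reads TTCGCGC.
Ccnb1: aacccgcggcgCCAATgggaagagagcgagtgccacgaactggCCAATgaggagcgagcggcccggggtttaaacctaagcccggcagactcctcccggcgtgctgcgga
Ccnb2: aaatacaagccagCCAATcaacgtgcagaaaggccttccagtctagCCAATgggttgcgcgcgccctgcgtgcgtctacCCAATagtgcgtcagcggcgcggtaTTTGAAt
Cdk1: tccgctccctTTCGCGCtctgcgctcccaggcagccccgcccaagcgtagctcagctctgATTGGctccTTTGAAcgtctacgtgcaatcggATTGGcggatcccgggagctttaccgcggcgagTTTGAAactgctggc
In Ccnb1 (chr13:100786487-100786596, minus strand, the last base shown being the one before the start) CCAAT began 99 and 67 bases before the start. In Ccnb2 (chr9:70421544-70421654, minus strand, ending 10 bases after the start) it began 87, 54 and 21 bases before the start, and a TTTGAA began at position 4 after it, with another, outside the stretch shown, 167 bases before it. In Cdk1 (chr10:69352913-69353052, minus strand) the stretch shown holds 2 of its 3 reverse CCAAT boxes, at 80 and 48 bases before the start, with TTTGAA at 71 and 15 and the reverse GCGCGAA at 130. The second Ccnd3 start had 1 CCAAT, 108 bases before it, and the first Ccnd3 start, Ccne1 and Cdk4 had none of the 5 motifs in this window. Of 32851 RefSeq promoters of the same length, 37.4% held CCAAT, 11.7% held it at least 2 times, 3.37% at least 3 times, 17.9% held TTTGAA, 1.56% held TTCGAA, 4.60% held GCGGGAA and 1.59% held GCGCGAA. These starts are those of RefSeq. By the gene positions given below, Ccnb1, Ccnb2 and Cdk1 begin at 100786570, 70421547 and 69352938, each inside its stretch shown, so the distances depend on the annotation. No searched motif overlaps another in the stretches shown. Such matches are letters in a window and were not tested for binding.

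**Figure D1:**
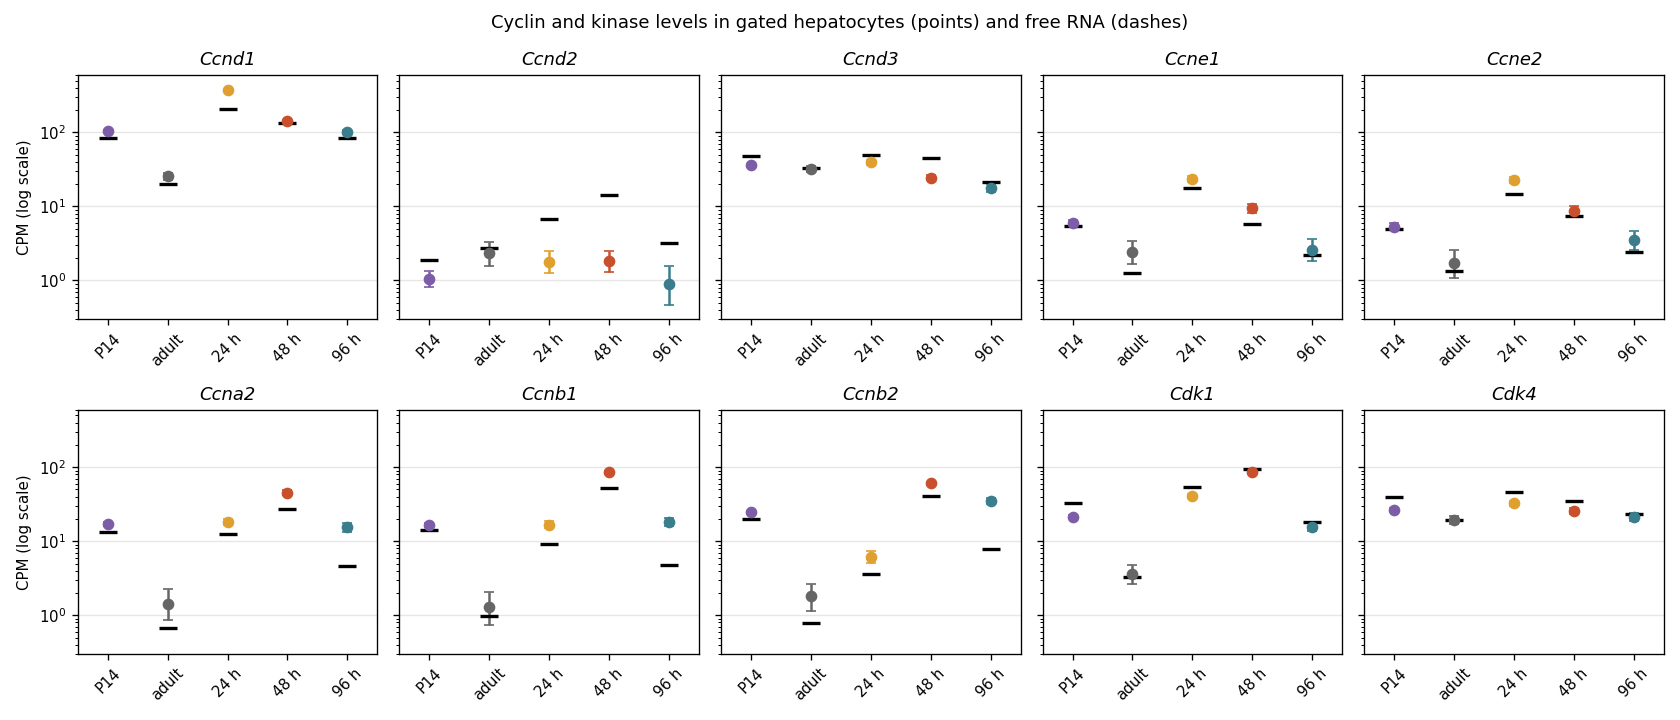
Level of each of the 10 genes in hepatocytes of the 5 libraries (points, CPM on a log axis, bars are exact Poisson 95% intervals, which are smaller than the point for the more abundant genes) and in the free RNA of the same library (dashes). Ccnd1, Ccne1 and Ccne2 are highest after 24 h and Ccna2, Ccnb1, Ccnb2 and Cdk1 after 48 h, while Ccnd2, Ccnd3 and Cdk4 lie below the free RNA in every library.

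Of the 10 members, 7 were far above the adult control after PHx, and Ccnd2, Ccnd3 and Cdk4 were not. At 24 h, 7 of the 9 usable members were at least 2-fold higher than in the adult control and 0 lower, where 8.51% of all 9028 genes tested were higher and 7.13% lower; the members' median log2 ratio was 2.96, against 0.00 over all genes. At 48 h the same count was 7 of 9 (background 8.3% higher, 7.63% lower; median 2.42 against -0.08). At 96 h it was 5 of 7 (background 4.07% higher, 1.88% lower, median 1.95 against 0.04). Ccne1 and Ccne2, with log2 ratios of 0.08 and 0.72, were left out there because both had dropped under 5 CPM. At P14 the count was again 7 of 9 (background 7.89% higher, 13.8% lower, median 2.01). The median of all genes at P14 was -0.26, so P14 ratios read 0.26 higher on the log2 scale when set against it. All 4 comparisons share the 1 adult control library. In it Ccne1, Ccne2, Ccna2, Ccnb1, Ccnb2 and Cdk1 were at 1.28 to 3.60 CPM, under the limit of 5 CPM. They were usable only through the other library and could not have been called lower. With no filter, members called higher numbered 7, 7, 5 and 7 of 10 at 24, 48 and 96 h and P14. Of all genes 3.07%, 3.15%, 1.75% and 3.37% were then higher. In free RNA the same rule called 7 of 8 usable members higher than in the adult control at P14 (9.06% of all genes), 8 of 9 after 24 h (12.1%), 8 of 10 after 48 h (11.5%) and 3 of 5 after 96 h (6.5%).

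Some calls were lost or gained under alternatives. When cells with markers of other classes were left out, Ccnb2 was no longer called after 24 h and Cdk4 was called higher there. Ccne1 at P14, at 1.03 on the log2 scale, was no longer called with doublets removed or with free RNA subtracted, and Ccne2 at P14 was not called with 10% to 20% mitochondrial UMIs or when cells with markers of other classes were left out. With at least 3% Alb, Apoa1 and Ttr UMIs, which leaves 144 cells after 24 h, neither B-type cyclin was called there, and with 10% to 20% mitochondrial UMIs Ccnb1 was not called after 96 h (53 cells), although Ccnb1 was 13.1-fold higher after 24 h and 14.5-fold after 96 h without these limits. Ccnb2 after 24 h was not called as a mean of per-cell CPM, and a pseudocount of 10 CPM ended that call as well as those of both E-type cyclins after 48 h and at P14 and of Cdk1 after 96 h.

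Ccnd1 (chr7:144929931-144939925, minus strand, GRCm38) was the only D-type cyclin called against the adult control. It overlaps LTO1 on the other strand, named Oraov1 in the count tables (5.78 to 11.4 CPM). Whether the counting used strand was not given in the sources used here, so reads of the overlap could not be assigned with certainty. The level of Ccnd1 was 25.5 CPM (22.8 to 28.3) in the adult control, 369 CPM (361 to 378) after 24 h, 141 CPM after 48 h, 101 CPM after 96 h and 106 CPM at P14, from 339, 7203, 2933, 1359 and 6836 UMIs. Ccnd1 was thus 14.5-fold (13.0 to 16.2) higher than the adult control after 24 h, 5.53-fold (4.94 to 6.21) after 48 h, 3.97-fold (3.52 to 4.49) after 96 h and 4.16-fold (3.73 to 4.65) at P14. Its levels after 96 h and at P14 were the nearest neighbours in that order, with intervals of 95.8 to 107 and 103 to 108 CPM that overlap. The fall from 24 to 48 h was 2.62-fold (2.51 to 2.74) and was called, while that from 48 to 96 h was 1.39-fold (1.31 to 1.49) and stayed within 2-fold.

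The rise of Ccnd1 reached most hepatocytes. To compare cells at 1 depth, each was thinned to 3500 non-mitochondrial UMIs, which no gated cell fell short of. At that depth 66.2% (63.4% to 68.9%) of the cells after 24 h had a Ccnd1 UMI, against 6.70% (5.18% to 8.51%) in the adult control, 38.2% after 48 h, 24.3% after 96 h and 29.6% at P14. Without thinning the Ccnd1 shares were 91.4% after 24 h, 22.4% in the adult control, 83.9% after 48 h, 59.8% after 96 h and 80.8% at P14. At the thinned depth, free RNA in its measured amount would give at most 3.19% of cells a Ccnd1 UMI, after 24 h, and T or NK-like cells thinned in the same way had one in 11.6% after 24 h and 2.52% in the adult control (median depths 5030.5 and 6279.5 UMIs before thinning). The 10% of hepatocytes with the most Ccnd1 UMIs held 29.1% of them after 24 h and 32.8% after 48 h, but 66.4% in the adult control, where the gene had far fewer UMIs, which by itself raises this share.

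**Figure D2:**
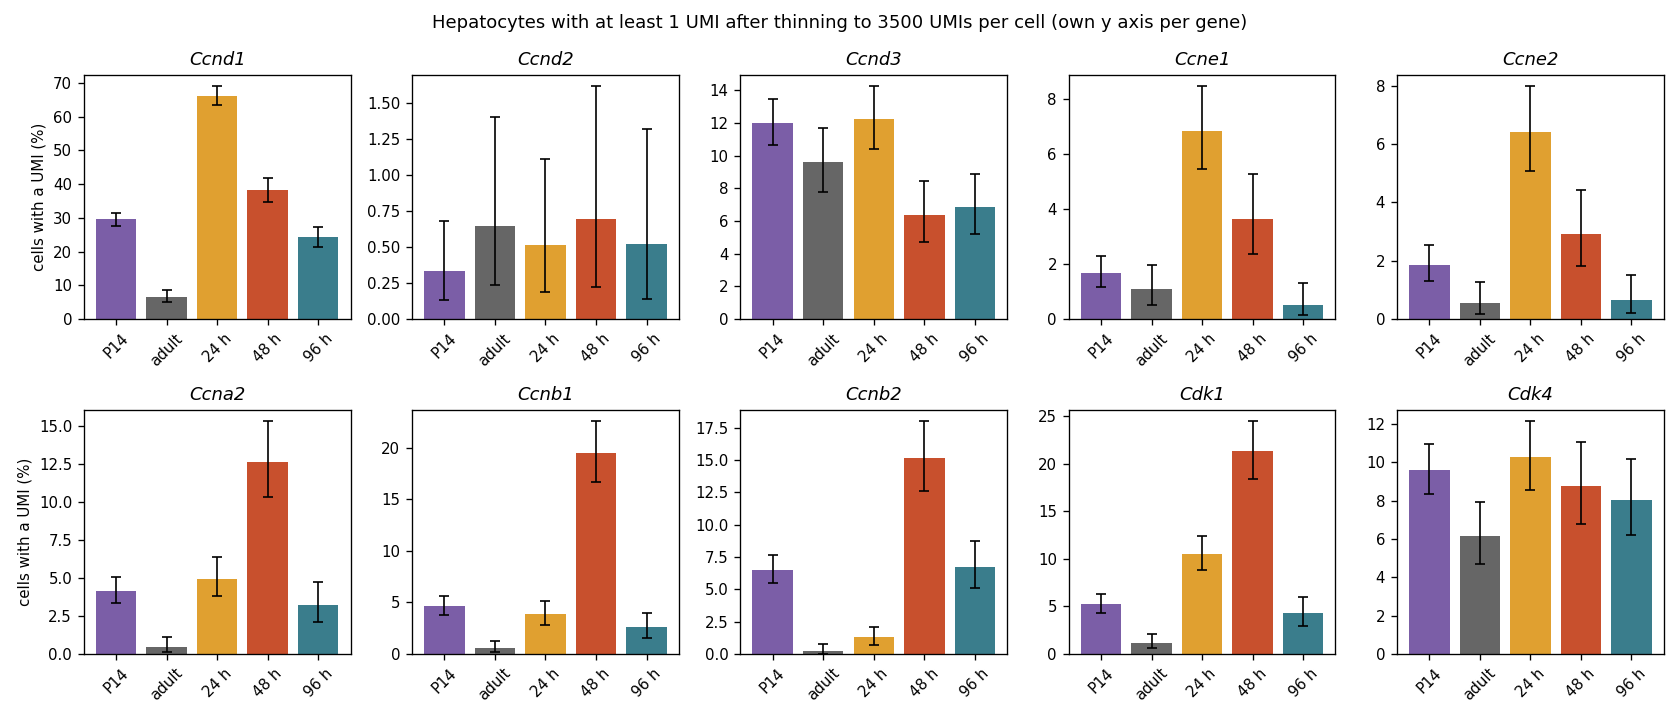
Share of hepatocytes with at least 1 UMI of each gene after every cell was thinned to 3500 non-mitochondrial UMIs (bars, percent, each panel with its own axis from 0, error bars are Clopper-Pearson 95% intervals). A Ccnd1 UMI is found in 66.2% of cells after 24 h, and after 48 h a Ccnb1 UMI in 19.5% and a Cdk1 UMI in 21.3%. These shares also depend on the level of each gene.

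Ccnd3 (chr17:47505051-47599691, plus strand) and Ccnd2 (chr6:127125162-127152193, minus strand) were not called in any comparison with the adult control. Ccnd3 stood at 32.4 CPM in the adult control, 39.4 after 24 h, 24.5 after 48 h, 17.6 after 96 h and 35.9 at P14. Its ratio to the adult control was 1.21 (1.08 to 1.37) after 24 h, 0.756 (0.664 to 0.861) after 48 h and 0.544 (0.462 to 0.638) after 96 h, values inside the 2-fold limit that lie on both sides of 1. The share of hepatocytes with a thinned Ccnd3 UMI was 9.62% in the adult control and 12.2%, 6.40% and 6.87% after 24, 48 and 96 h. Ccnd3 in hepatocytes lay at 0.545 to 0.967 times its level in free RNA. It overlaps Bysl on the other strand (10.4 to 24.7 CPM), with the same limit on strand as for Ccnd1.

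Ccnd2 was very low in hepatocytes. It had 68, 31, 35, 38 and 12 UMIs at P14, in the adult control and after 24, 48 and 96 h, or 0.893 to 2.33 CPM. A UMI was found in 0.332% to 0.695% of thinned hepatocytes, where free RNA in its measured amount would give 0.00956% (P14) to 0.106% (24 h). Every library held more Ccnd2 in its free RNA, from 1.88 CPM at P14 to 14.3 CPM after 48 h, and the ratio of hepatocytes to free RNA was lowest after 48 h, 0.127. With all levels under 5 CPM the gene entered no comparison.

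The E-type cyclins Ccne1 (chr7:38097984-38107534, minus strand) and Ccne2 (chr4:11191351-11204779, plus strand), which activate Cdk2 at the entry into replication, had their highest level after 24 h with Ccnd1. Ccne1 was at 2.40 CPM (1.64 to 3.39) in the adult control, 23.3 (21.2 to 25.6) after 24 h, 9.41 after 48 h, 2.60 after 96 h and 5.93 at P14. Ccne2 was at 1.73 CPM (1.09 to 2.59), 23.0 (20.9 to 25.2), 8.74, 3.50 and 5.33 CPM in the same order. The pair ran in parallel: the ratio of Ccne2 to Ccne1 UMIs was 0.985 after 24 h, 0.929 after 48 h and 0.898 at P14, and in the adult control and after 96 h, from 23 to 47 UMIs a gene, it was 0.719 (0.402 to 1.27) and 1.34 (0.849 to 2.14).

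Over the adult control Ccne1 was 9.70-fold (6.78 to 14.4) and Ccne2 13.3-fold (8.75 to 21.2) higher after 24 h. At 48 h the ratios were 3.92 (2.68 to 5.88) and 5.06 (3.27 to 8.18), and from 24 to 48 h Ccne1 fell 2.48-fold (2.09 to 2.95) and Ccne2 2.63-fold (2.21 to 3.14). At 96 h both were under 5 CPM. At P14 they were 2.47-fold (1.72 to 3.66) and 3.08-fold (2.02 to 4.93) higher, the smallest of the 7 ratios called there. At 24 h, 6.84% (Ccne1) and 6.41% (Ccne2) of thinned hepatocytes had a UMI, against 1.08% and 0.541% in the adult control. T or NK-like cells of the 24 h library had a Ccne2 UMI in 0 of 190. That allows a share with a UMI of up to 1.58% (3 cells of the total), and it does not limit the share of cells that express the gene. Ccne2 overlaps Ints8 on the other strand (7.15 to 7.89 CPM), with the same limit on strand.

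Ccna2 (chr3:36564865-36572150, minus strand), the cyclin of replication and G2, was at 1.43 CPM (0.859 to 2.23) in the adult control, 18.2 after 24 h, 45.5 (42.7 to 48.5) after 48 h, 15.3 after 96 h and 17.0 at P14. It was 12.8-fold (8.07 to 21.5) higher than the adult control after 24 h, 31.9-fold (20.3 to 53.2) after 48 h, 10.7-fold (6.71 to 18.2) after 96 h and 11.9-fold (7.59 to 19.9) at P14. The libraries after 24 h, after 96 h and at P14 were close to each other, and 48 h stood above all 3. Exosc9, which overlaps Ccna2 on the other strand, was at 5.93 to 14.4 CPM.

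Ccnb1 (chr13:100778650-100786570, minus strand), the cyclin that with Cdk1 starts mitosis, had the largest change of the 10 genes. It was at 1.28 CPM (0.744 to 2.04) in the adult control from 17 UMIs, 16.7 after 24 h, 84.9 (81.0 to 89.0) after 48 h, 18.5 after 96 h and 16.4 at P14. This made it 13.1-fold (8.05 to 22.7) higher than the adult control after 24 h, 66.5-fold (41.4 to 114) after 48 h, 14.5-fold (8.85 to 25.2) after 96 h and 12.8-fold (7.98 to 22.1) at P14. From 24 to 48 h it rose 5.08-fold (4.51 to 5.74) and from 48 to 96 h it fell 4.60-fold (4.03 to 5.28).

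Ccnb2 (chr9:70407692-70421547, minus strand), the other mitotic B-type cyclin, rose more steeply to 48 h than Ccnb1 and fell less afterwards. It was at 1.80 CPM (1.15 to 2.68) in the adult control, 6.20 after 24 h, 60.2 (57.0 to 63.7) after 48 h, 34.7 after 96 h and 24.7 at P14. Its ratio to the adult control was 3.44 (2.21 to 5.58) after 24 h, 33.4 (22.4 to 52.4) after 48 h, 19.2 (12.8 to 30.3) after 96 h and 13.7 (9.16 to 21.4) at P14. The rise from 24 to 48 h, 9.72-fold (8.06 to 11.8), was the steepest of the members, and its fall from 48 to 96 h, 1.74-fold (1.56 to 1.94), was not called. That fall was called with no lower mitochondrial limit and with 10% to 20% mitochondrial UMIs (53 cells after 96 h). Under the latter limit the thinned share with Ccnb2 went from 19.0% after 48 h to 1.89% after 96 h. The share with Ccnb1 went from 22.4% to 1.89%.

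The balance of the B-type cyclins therefore differed between libraries. The ratio of Ccnb2 to Ccnb1 UMIs was 0.371 (0.299 to 0.459) after 24 h, 0.709 (0.659 to 0.763) after 48 h and 1.88 (1.61 to 2.20) after 96 h, with 1.50 (1.39 to 1.63) at P14 and 1.41 (0.727 to 2.80) in the adult control. These intervals after 24, 48 and 96 h do not overlap, but they do not cover the gathering of these UMIs in few cells. As a ratio inside each library it does not depend on the scaling between libraries. Free RNA gave 0.393, 0.774 and 1.61 after 24, 48 and 96 h and 1.40 at P14, in the same order. The ratio of Ccna2 to Ccnb1 was 1.09 (0.937 to 1.27) after 24 h, 0.536 (0.495 to 0.580) after 48 h, 0.831 (0.687 to 1.00) after 96 h and 1.04 at P14.

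A UMI of a mitotic cyclin was found in a minority of hepatocytes in every library. Such a share also depends on the level of the gene and is not the share of cells that express it. At 3500 UMIs per cell, Ccnb1 had a UMI in 19.5% (16.6% to 22.6%) and Ccnb2 in 15.2% (12.6% to 18.0%) of the cells after 48 h. The shares were 3.85% and 1.28% after 24 h, 2.59% and 6.74% after 96 h, 4.61% and 6.51% at P14, and 0.541% and 0.216% in the adult control. Without thinning the shares after 48 h were 41.6% for Ccnb1, 41.9% for Ccnb2 and 40.6% for Ccna2. A thinned cell held 0.287 Ccnb1 UMIs on average after 48 h, where it held 1.31 Ccnd1 UMIs after 24 h. Ccna2 was found in 12.7% of the cells after 48 h and in 3.24% to 4.96% after 24 h, 96 h and P14. At the thinned depth free RNA would give Ccnb1 to at most 0.198% of cells, and neutrophil-like cells of the 48 h library (median depth 9271 UMIs before thinning) had Ccnb1 and Ccnb2 in 0.629% each.

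These transcripts were also concentrated in few cells. The 10% of hepatocytes with the most Ccnb1 UMIs held 56.5% of them after 48 h, 91.5% at P14 and, from 326 UMIs, 96.9% after 24 h. For Ccnd3 and Cdk4, which had fewer UMIs than Ccnb1 after 48 h (511 and 534 against 1769), the top 10% held 38.7% and 39.9% there. At P14 they had more UMIs than Ccnb1 (2316 and 1730 against 1059), which lowers this share, and their top 10% held 33.5% and 35.6%. At 96 h the level in hepatocytes was 3.83 times that in free RNA for Ccnb1, 4.47 times for Ccnb2 and 3.32 times for Ccna2, and in the other libraries it was 1.15 to 1.79, 1.23 to 2.33 and 1.26 to 2.10 times. For Ccnd1 the 5 libraries gave 1.05 to 1.81 times.

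Cdk1 (chr10:69335146-69352938, minus strand), the mitotic kinase, was at 3.60 CPM (2.66 to 4.78) in the adult control, 41.1 after 24 h, 85.6 (81.7 to 89.7) after 48 h, 15.7 after 96 h and 21.6 at P14. It was 11.4-fold (8.53 to 15.6) higher than the adult control after 24 h, 23.7-fold (17.8 to 32.3) after 48 h, 4.36-fold (3.17 to 6.09) after 96 h and 5.98-fold (4.49 to 8.15) at P14. Cdk1 had a UMI in 10.5% of thinned hepatocytes after 24 h and 21.3% (18.3% to 24.5%) after 48 h. Measured against its partner, the ratio of Cdk1 to Ccnb1 UMIs was 2.46 (2.16 to 2.81) after 24 h, 1.01 (0.943 to 1.08) after 48 h and 0.851 (0.705 to 1.03) after 96 h, with 1.31 at P14 and 2.82 (1.59 to 5.24) in the adult control. Free RNA gave 5.85, 1.82 and 3.81 after 24, 48 and 96 h, higher after 96 h than after 48 h, and 2.31 at P14 and 3.35 in the adult control. From 48 to 96 h Cdk1 fell 5.45-fold (4.72 to 6.32), the largest fall among the members. In 4 of the 5 libraries, the adult control being the exception at 1.10, its level in hepatocytes was below that in free RNA (0.652 to 0.895 times).

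Cdk4 (chr10:127063534-127067920, plus strand), the kinase of the D-type cyclins, changed little. It was at 19.2 CPM in the adult control, 32.8 after 24 h, 25.6 after 48 h, 21.2 after 96 h and 26.8 at P14, which gives ratios of 1.71 (1.47 to 1.98), 1.33 (1.15 to 1.55), 1.10 (0.929 to 1.31) and 1.39 (1.22 to 1.60), none of them called. When cells with markers of other classes were left out, Cdk4 was called higher after 24 h. Its level in hepatocytes was 0.674 (P14) to 0.993 (adult control) times that in free RNA. It had a UMI in 6.16% of thinned hepatocytes in the adult control and in 8.04% to 10.3% elsewhere. Cdk4 shares 641 bases with Tspan31 on the opposite strand, which was counted at 174 to 429 CPM, so without a stated strand setting its level is uncertain.

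Set side by side, 48 h against 24 h gave 4 of 9 usable members higher, Ccnb2, Ccnb1, Ccna2 and Cdk1, where 1.78% of all 8817 genes were higher, and 3 lower, Ccnd1, Ccne1 and Ccne2, where 1.76% were lower. The median over these members was -0.34 on the log2 scale, with -0.07 over all genes. From 48 to 96 h, 0 were higher and 5 lower (background 4.38% higher, 4.24% lower; median -1.11 against 0.11). The 5 were Cdk1, Ccnb1, Ccne1 (3.61-fold), Ccna2 (2.97-fold) and Ccne2 (2.50-fold). Ccnb2, Ccnd1, Ccnd3 and Cdk4 stayed within 2-fold, and Ccnd2 was under 5 CPM in both comparisons. With a pseudocount of 10 CPM the calls of Ccna2 and Cdk1 from 24 to 48 h, and those of Ccne1 and Ccne2 in both steps, were not made, and with at least 3% Alb, Apoa1 and Ttr UMIs those of Ccnd1 and Ccne2 from 24 to 48 h were not. Ccnb2 was called lower from 48 to 96 h with no lower mitochondrial limit. It was also called with 10% to 20% mitochondrial UMIs, where the call of Ccne2 was lost. Under that limit the call of Ccne1 from 24 to 48 h was lost too. Its thinned share was then 6.08% after 24 h (181 cells) and 6.90% after 48 h (116 cells).

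Whether the members were found in the same hepatocytes was read from pairs of thinned UMIs in single cells. The number of cells with both genes was set against the product of their separate shares, the number that independent detection at 3500 UMIs would give, and described with an odds ratio. Cells of a library are not replicates, so no test was made. The product reached 5 cells for 21 of the 45 pairs at P14, 22 after 24 h, 24 after 48 h, 5 after 96 h and 2 in the adult control.

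Mitotic members were found together. At 48 h, 55 cells had both Ccnb1 and Ccnb2 where the product gave 21.2 (odds ratio 6.29), 66 had Ccnb1 and Cdk1 against 29.8 (5.04), and 44 had Ccna2 and Ccnb1 against 17.7 (5.19). Without thinning the odds ratio of Ccnb1 and Ccnb2 was 33.7, so its size depends on depth. At P14 the odds ratios were larger, 22.7 for Ccnb1 and Cdk1 (43 cells against 5.11) and 12.4 for Ccnb1 and Ccnb2 (38 against 6.31). At 96 h, 7 cells had both B-type cyclins where the product gave 1.35. At 24 h, 21 cells had Ccnb1 and Cdk1 against 4.73 (odds ratio 8.78). The pairs of that library with the largest excess among those with a product of at least 5 were Ccna2 and Cdk1 (17 cells against 6.10, odds ratio 3.94) and Ccne1 and Ccne2 (12 against 5.13, odds ratio 2.88).

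Pairs with Ccnd1 lay on different sides of the product at different times. Over the pairs with a product of at least 5 cells, the median of cells found over the product was 1.18 after 24 h (15 of 22 pairs above 1), 1.06 after 48 h (13 of 24) and 1.37 at P14 (14 of 21). At 24 h Ccnd1 was near that median with the E-type cyclins, at 1.25 times the product with Ccne2 and 1.21 with Ccne1, in 62 cells with Ccne2 against 49.7 (odds ratio 2.56) and 64 with Ccne1 against 53.0 (2.13), and with Ccnb1 in 35 against 29.8 (1.82). At 48 h the pairs of Ccnd1 with the mitotic members lay below the product: 36 cells with Ccnb1 against 53.5 (odds ratio 0.492), 26 with Ccna2 against 34.8 (0.609), 47 with Cdk1 against 58.5 (0.657) and 36 with Ccnb2 against 41.7 (0.766). With the E-type cyclins the counts were small and lay on both sides of the product, 11 cells with Ccne2 against 8.03 (1.81) and 8 with Ccne1 against 9.94 (0.709). Lying below the product was not particular to Ccnd1. Ccnd3 was found with Ccnb2 in 3 cells against 6.97 (0.373) and with Ccnb1 in 5 against 8.96 (0.486), but with Cdk1 in 12 against 9.79 (1.33). Ccna2 and Cdk4 shared 4 cells against 7.97 (0.443). Among the 116 cells of this library with 10% to 20% mitochondrial UMIs, the odds ratio of Ccnd1 and Cdk1 was 1.20. At P14 the mitotic members also lay below the product, by odds ratios of 0.512 for Ccnb2 (25 cells against 40.5), 0.749 for Ccna2, 0.774 for Ccnb1 and 0.918 for Cdk1 (31 against 32.8), while 17 cells had Ccnd1 and Ccne2 against 11.5 (1.86), and 15 had Ccnd1 and Ccne1 against 10.4 (1.80). At 96 h 5 pairs had a product of at least 5, with a median of 0.625 times the product and 1 above it, and those of Ccnd1 with Ccnb2, Ccna2 and Cdk1 had odds ratios of 0.466, 0.417 and 0.546 from 3 to 7 cells.

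**Figure D3:**
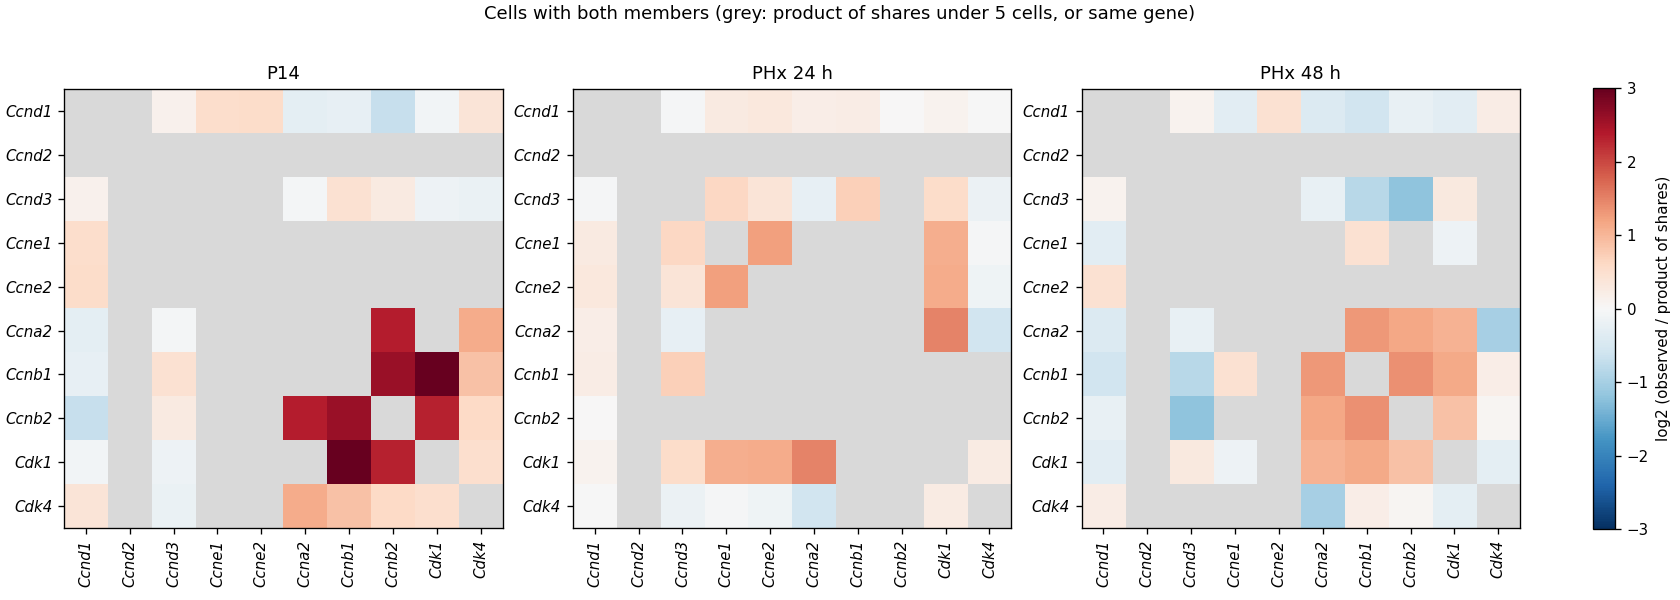
Pairs of the 10 genes in single hepatocytes at P14, 24 h and 48 h, as the log2 of the number of thinned cells with both genes over the product of their shares (red above, blue below the product; grey marks pairs with a product under 5 cells and the diagonal). Within Ccna2, Ccnb1, Ccnb2 and Cdk1 all pairs are red at 48 h, and at P14 all but the grey pairs of Ccna2 with Ccnb1 and Cdk1, and the Ccnd1 row is red with both E-type cyclins after 24 h and blue with the 4 mitotic genes after 48 h.

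Hepatocytes were also split by the B-type cyclins, and levels were compared between the parts of each library. Cells with a thinned Ccnb1 or Ccnb2 UMI numbered 194 after 48 h (27.0%), 65 after 96 h (8.43%), 57 after 24 h (4.87%), 196 at P14 (9.31%) and 5 in the adult control, where no level is given. In all UMIs of these cells Ccnd1 was at 95.5 CPM after 48 h, against 160 CPM in the cells without, a ratio of 0.595 (0.543 to 0.651). The ratio was 0.571 (0.454 to 0.709) after 96 h and 0.644 (0.582 to 0.712) at P14, but 0.953 (0.856 to 1.06) after 24 h, where the positive cells had 353 CPM and the others 370. Positive cells were deeper after PHx (medians of 41944 against 34244 UMIs after 48 h and 27914 against 21250.5 after 96 h) and not at P14 (38216.5 against 39062.5), and the part of depth in these ratios was not tested. With 10% to 20% mitochondrial UMIs the log2 ratio of Ccnd1 after 48 h was -0.29 in place of -0.75, from 34 positive cells, and after 96 h it was 0.0957 from 2 positive cells.

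Ccna2 and Cdk1 were higher on the B-type-positive side of this split, and the E-type cyclins lay on different sides of 1 by library. Ccna2 was higher in the B-type-positive cells by 3.66 times after 48 h, 5.99 after 24 h, 8.02 after 96 h and 13.0 at P14, and Cdk1 by 3.79, 5.63, 6.96 and 11.4 times. Ccne2 was lower in them after 48 h, at 3.65 against 10.9 CPM, a ratio of 0.334 (0.206 to 0.519), and so was Ccne1 (0.538, 0.365 to 0.773), whereas at P14 Ccne1 was higher, 2.78 times (2.16 to 3.55), and Ccne2 was at 1.41 (1.00 to 1.95). At 24 h Ccne1 was at 26.5 against 23.1 CPM (interval of the ratio 0.751 to 1.68) and the ratio of Ccne2 was 1.43 (0.979 to 2.03). After 96 h the ratios were 0.506 (0.0588 to 1.98) for Ccne1 and 0.993 (0.307 to 2.51) for Ccne2. Ccnd3 differed by less than its counting interval after 48 h (0.906, 0.742 to 1.10), 96 h and P14, and was 1.35 (1.00 to 1.77) after 24 h, a ratio that turned below 1 with 10% to 20% mitochondrial UMIs (7 positive cells) or with 2 UMIs asked for (8 positive cells). Cdk4 was 1.48 times (1.28 to 1.70) higher at P14 and within its interval after 24, 48 and 96 h.

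The 3 kinase inhibitors read in this split were higher in the cells with B-type cyclins. Cdkn2c, which encodes the Cdk4 and Cdk6 inhibitor p18, was higher by 6.30 (5.26 to 7.53) times at P14, 3.77 (2.99 to 4.70) after 24 h, 2.96 (2.61 to 3.35) after 48 h and 1.87 (1.42 to 2.42) after 96 h. Cdkn1b, for the Cdk2 inhibitor p27, was higher by 1.48 (96 h) to 2.48 (24 h) times. Cdkn1a, for p21, was 1.22 to 1.62 times higher at P14, 24 h and 48 h, and 4.11 times (3.00 to 5.58) after 96 h, with 44.5 CPM against 10.8.

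Markers of other cells were checked in the same split. At 48 h erythroid markers were at 562 CPM in the B-type-positive cells and 848 in the others, and neutrophil markers at 182 and 204. At P14 erythroid markers were at 905 against 44.5 CPM, but 5107 of the 5365 UMIs lay in 1 barcode and the level was 44.0 without it; B-cell markers, 31.7 against 5.18 CPM, were at 4.25 without 1 barcode. T or NK markers at P14 were at 4.56 against 1.72 CPM, and at 2.04 without 1 barcode. At 24 h all 14 B-cell marker UMIs of the positive cells lay in 1 barcode. At 96 h erythroid markers were at 411 against 315 CPM, and at 226 without 1 barcode. Alb, Apoa1 and Ttr together were lower in the B-type-positive cells, at 125651 against 148647 CPM at P14 and 23618 against 30032 CPM at 24 h. At 48 h they were at 35414 against 35891 CPM and at 96 h at 63033 against 80740 CPM.

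**Figure D4:**
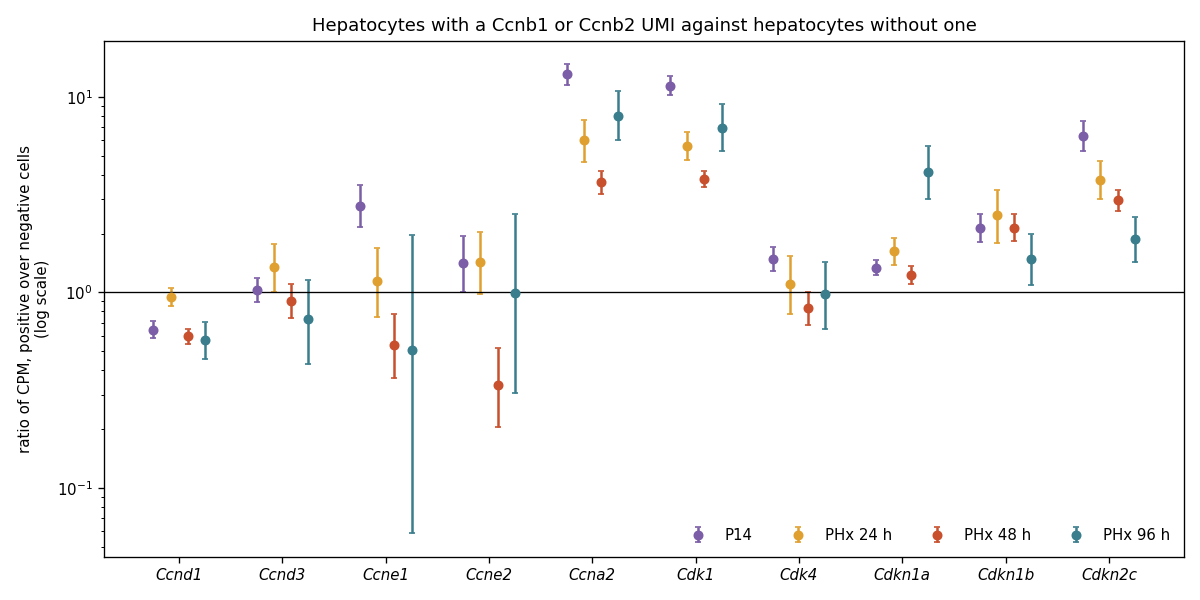
Ratio of the level (CPM, log axis) in hepatocytes with a thinned Ccnb1 or Ccnb2 UMI to that in hepatocytes without one, for 7 of the 10 genes and 3 kinase inhibitors at P14, 24 h, 48 h and 96 h (points, bars are exact conditional binomial 95% intervals). Ccna2, Cdk1 and Cdkn2c lie above 1 in all 4 libraries, and Ccnd1 lies below 1 except after 24 h, where its interval includes 1.

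A count of how many of 6 members (both E-type cyclins, Ccna2, both B-type cyclins and Cdk1) a thinned cell held was set against the level of Ccnd1. At 24 h Ccnd1 was at 347 CPM (337 to 357) in the 75.6% of cells with 0 of the 6, and at 430, 432 and 430 CPM in cells with 1, 2 and at least 3. At 48 h it was at 166 CPM (159 to 174) in the 57.6% of cells with 0, and at 127, 94.9 and 98.0 CPM with 1, 2 and at least 3. At P14 the cells with 0, 1, 2 and at least 3 had 108, 98.9, 97.7 and 56.9 CPM (45.5 to 70.4 for the last), and after 96 h the values were 107, 76.5, 55.1 and 36.8 CPM (10.0 to 94.3 for the last, from 5 cells). The 6 pool E-type with mitotic members, which differed: in cells with a thinned Ccne1 or Ccne2 UMI, Ccnd1 was higher than in the rest in each of these libraries, by 1.29 times (1.21 to 1.37) after 24 h, 1.21 (1.05 to 1.39) after 48 h, 1.35 (1.20 to 1.52) at P14 and 1.39 (0.835 to 2.18, from 9 cells) after 96 h.

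Genes that work with the members were counted in 6 lists chosen for their function. As for the members, a gene under 5 CPM in the adult control could not be called lower than it. Over all genes, 8.51%, 8.3%, 4.07% and 7.89% were higher than in the adult control after 24, 48 and 96 h and at P14, and 7.13%, 7.63%, 1.88% and 13.8% were lower. Kinase inhibitors were higher than in the adult control in 3 of 5 usable genes after 24 h, 4 of 5 after 48 h, 3 of 5 after 96 h and 3 of 5 at P14, and 0 were lower; the median log2 ratios were 1.57, 2.38, 1.61 and 3.11, to be read against the medians of all genes given above. Cdkn1a was 47.3-fold (33.0 to 70.3) higher after 24 h, 107 against 2.25 CPM. Cdkn3, a phosphatase of Cdk1 and Cdk2, was 44.8-fold (27.1 to 80.4) higher after 48 h, and Cdkn2c 5.70-fold (4.71 to 6.97). The list differed at P14 through Cdkn1c and Cdkn2c. Cdkn1c, which encodes p57, was at 107 CPM there and at 0.526 CPM in the adult control (7 UMIs), and 0.307 to 2.90 CPM after PHx. Cdkn2c, called higher after 24, 48 and 96 h, was at 8.16 CPM at P14 against 8.79 CPM in the adult control.

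Activating phosphatases and the kinases around them were higher in 3 of 4 usable genes after 24 h, 5 of 6 after 48 h, 1 of 3 after 96 h and 1 of 3 at P14, with 0 lower and median log2 ratios of 1.80, 2.11, 0.49 and 0.36. Plk1, which promotes mitotic entry, was at 33.6 CPM after 48 h against 0.300 (4 UMIs) in the adult control. Cdc25c, the phosphatase that activates Cdk1, was at 6.48 against 0.0751 CPM, a ratio of 86.3 from 1 UMI in the adult control (15.2 to 3433). Pkmyt1, an inhibitory kinase of Cdk1, was 13.5-fold (6.40 to 34.2) and Cdc25b 6.57-fold (3.53 to 13.5) higher after 48 h.

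Pocket proteins and E2F factors lie downstream of the G1 kinases, and their list also held Foxm1, Lin54, Lin9 and Mybl2. Genes of this list were higher in 8 of 15 usable genes and lower in 1 after 24 h, higher in 5 of 15 after 48 h and in 1 of 13 after 96 h. Foxm1, Lin54 and Lin9 were among the 8 after 24 h and Foxm1 and Lin54 among the 5 after 48 h. The 1 after 96 h was Foxm1, so no pocket protein or E2F factor was called higher there. At P14, 0 of 10 were higher and 1 was lower, and the medians in that order were 1.01, 0.72, 0.32 and -0.32. E2f1 was 7.39-fold (5.68 to 9.78), Rbl1 (p107) 7.69-fold (4.80 to 13.0) and Tfdp1 2.98-fold (2.55 to 3.50) higher after 24 h. Foxm1, a transcription factor of G2 and mitosis, was at 16.9 CPM after 48 h, a ratio of 113 over 2 UMIs in the adult control (30.9 to 933). Rbl2, the p130 of resting cells, was at 31.2 CPM in the adult control and 13.7 at P14, a ratio of 0.438 (0.390 to 0.494).

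Degradation genes were higher in 6 of 12 usable genes and lower in 1 after 24 h and again after 48 h, and higher in 3 of 9 after 96 h and 2 of 9 at P14, with 1 lower in each, and medians of 1.15, 1.07, -0.04 and -0.18. The 1 of 12 lower after 24 and 48 h is near the share of all genes. Ube2c, an E2 enzyme of the anaphase-promoting complex that destroys the B-type cyclins, was 69.5-fold (50.1 to 99.4) higher after 48 h at 188 CPM, Cdc20, its activator, 51.3-fold (32.7 to 85.4) and Ube2s 6.66-fold (5.97 to 7.45). Dtl, of the replication-coupled ligase, was 24.5-fold (13.2 to 51.5) higher after 24 h. Fbxo31 was the gene lower in all 4 comparisons, at 55.0 CPM in the adult control and 16.5 after 48 h, a ratio of 0.300 (0.263 to 0.341).

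Partners and assembly factors were higher in 3 of 9 usable genes after 24 h and after 48 h, and in 1 of 10 after 96 h and at P14, with 0 lower and medians of 0.55, 0.71, 0.63 and 0.41. The 1 of 10 at P14 is near the share of all genes. Cks1b and Cks2, small subunits of the kinase complexes, were 6.23-fold (5.19 to 7.54) and 3.26-fold (2.97 to 3.59) higher after 48 h, Cdk2, the kinase of the E-type cyclins, 2.86-fold (2.35 to 3.52) after 24 h, and Ccnb1ip1 12.8-fold (7.46 to 24.2) at P14. Cyclins and kinases of transcription and other roles gave 0 higher among 19 usable genes in each of the 4 comparisons (medians -0.20, -0.22, -0.10 and -0.41), with 1 lower after 24 h (Ccng2, ratio 0.407) and 3 lower at P14, Ccng1 (0.317), Cdk19 (0.354) and Ccnc (0.431). The shares lower after 24 h and at P14 are near those of all genes, as are those of the pocket protein list at both and of the degradation list at P14.

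For each member the 3 genes of the most similar course were sought among 6047 genes with at least 20 CPM in some library, as the smallest root mean square difference of the log2 ratios over the 4 libraries other than the adult control. The nearest gene of Ccnd1 was Slfn9 at 0.35, then Fignl1 at 0.55 and Rrm1 at 0.59. Ccne2 was nearest to the replication licensing factor Cdt1 (0.12), Atad2 (0.30) and Mms22l (0.33), and Ccne1 to Atad2 (0.34), Pcna (0.38) and Dnmt1 (0.39). Cdk1 was nearest to the mitotic genes Ttk (0.09), Anln (0.12) and Aurka (0.16).

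Ccnb1 was nearest to the spindle gene Tpx2 (0.24), Ckap2 (0.30) and Birc5 (0.37), and Ccna2 to Stmn1 (0.23), Racgap1 (0.25) and Cenpe (0.28). Ccnb2 had Cdkn3 at 0.18, then Cdc20 at 0.58 and Knstrn at 0.62. The nearest genes of Ccnd3 were Notum (0.10), Chd3 (0.20) and Cdip1 (0.21), and those of Cdk4 were Pds5b, Itm2c and Ero1l (0.10 each). Ccnd2 was too low to be matched. These are distances between 4 values a gene that share 1 control library.

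The D-type cyclins differed between cell classes of the same suspensions. Other cells were barcodes with at least 1000 UMIs, under 10% mitochondrial UMIs, an Alb, Apoa1 and Ttr share under 0.630% to 3.97% by library (0.5 times that of its free RNA) and at least 4 different markers of a class, more than of any other. They were named from these markers only. Ccnd2, near 0 in hepatocytes, was at 294 to 390 CPM in T or NK-like cells and 244 to 568 CPM in endothelial-like cells of the 5 libraries, and 49.7% to 67.1% of the thinned T or NK-like cells had a UMI. Ccnd3 was at 231 to 319 CPM in T or NK-like and 277 to 384 CPM in neutrophil-like cells, against 17.6 to 39.4 CPM in hepatocytes. Ccnd1 was at 3.97 to 41.5 CPM in T or NK-like cells and at 162 to 380 CPM in endothelial-like cells. Cdk4 was at 91.7 to 112 CPM in T or NK-like cells.

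The Ccnd1 difference between libraries was not the same in these classes. Endothelial-like cells (25 to 80 a library) had 162 CPM of Ccnd1 in the adult control, 167 after 24 h, 380 after 48 h and 277 after 96 h. The highest of these values was thus in the 48 h library, from 39 cells (38 after 96 h), and that of hepatocytes in the 24 h library. T or NK-like cells had 7.67 CPM in the adult control and 41.5 after 24 h. Free RNA was at 204 CPM of Ccnd1 after 24 h, and its part in the values of either class was not tested. Mitotic members outside hepatocytes were higher at P14 than in the adult control in each of the 5 other classes, from 11 to 97 cells a class at P14. Over these classes Ccna2 was at 30.6 (neutrophil-like) to 300 CPM (B-like), Ccnb1 at 24.5 to 274 CPM, Ccnb2 at 51.0 to 217 CPM and Cdk1 at 71.4 to 396 CPM at P14, where none of the 4 was above 26.7 CPM in a class of the adult control, though the counting intervals of Ccna2 and Ccnb1 in neutrophil-like cells overlapped.

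**Figure D5:**
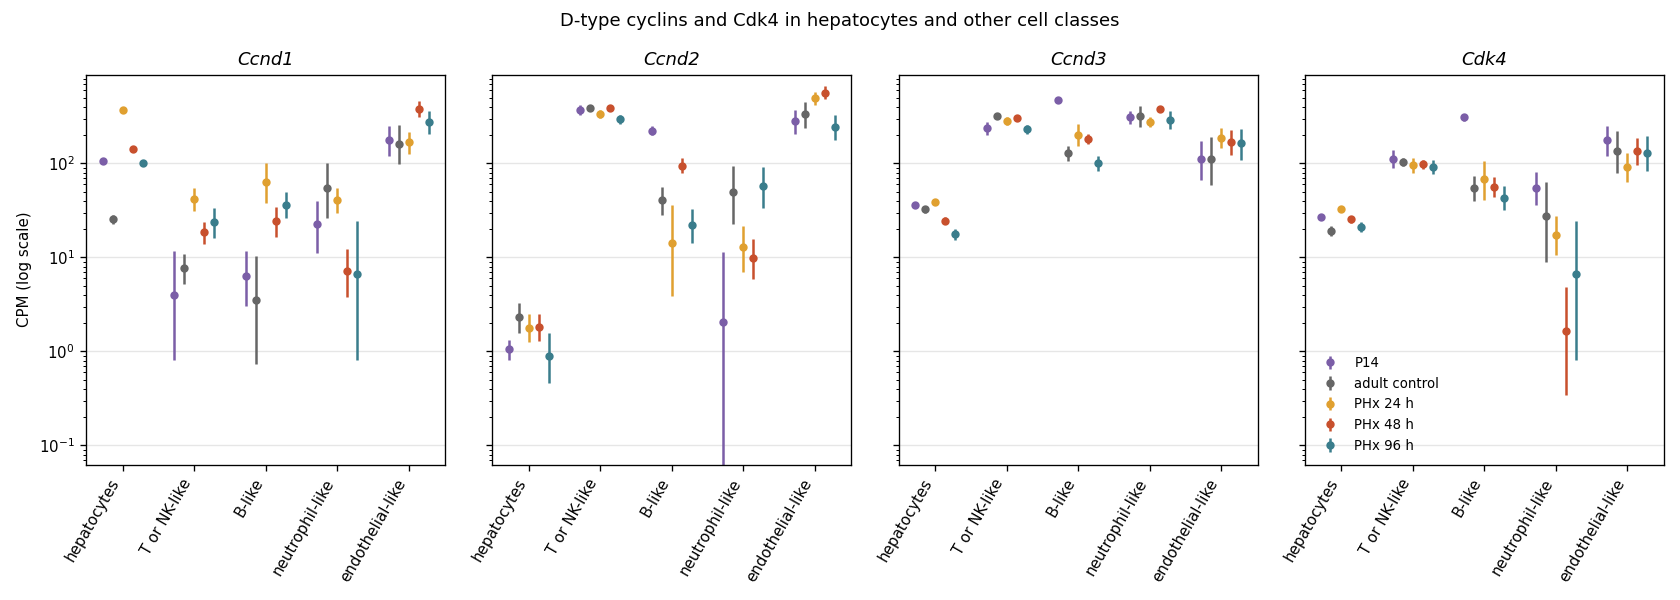
Levels of Ccnd1, Ccnd2, Ccnd3 and Cdk4 (CPM on a log axis, bars are exact Poisson 95% intervals) in hepatocytes and in 4 other classes of cells named from markers, by library. Ccnd2 is at or below 2.33 CPM in hepatocytes and at 244 CPM or more in T or NK-like and endothelial-like cells, while Ccnd1 after 24 h is higher in hepatocytes than in T or NK-like cells.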

How the data were processed

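Droplet counts of 5 liver libraries, 1 per group, were used. The authors deposited, per library, a sparse matrix of whole-number UMI counts per gene and barcode without normalization. Per the submitters' processing notes, bcl2fastq 2.17.1.14, Cell Ranger, Seurat 3.1 and build mm10 were used, and the matrix headers name software version 3.0.2. Whether counting used strand, and any filter on barcodes, are not given in the sources used here. Empty droplets are in the matrices. Reads of free RNA, perfusion and dead cell removal therefore act on every value.

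Hepatocytes were gated as described above, and their counts summed to CPM without the mitochondrial genes. Thinning drew 3500 non-mitochondrial UMIs per cell with fixed seeds. Free RNA was the sum over barcode ranks 20001 to 60000. Python 3.11.15, numpy 2.4.6, scipy 1.17.1 and pandas 2.3.3 were used, edgeR 4.0.16 for TMM factors and Scrublet in scanpy 1.11.5 for doublets in alternatives; no doublets were removed from the values above. The pseudocount of 1 CPM understates ratios of low genes, whose folds are given without it. The scripts were tested on simulated counts. Gene positions come from GENCODE M21 (GRCm38). No test across genes was possible with 1 library per group.

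All members are named. Of the function lists, genes past 2-fold over the adult control were named, at most the 4 largest per list and direction, together with the 3 nearest genes of each usable member. Inhibitors and cell classes shown in the split and outside hepatocytes were chosen for their role. The members and lists were chosen with earlier results of these data known. Alternatives changed the gate, the depth, the scaling, the pseudocount and the filter.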

Additional observations from a re-analysis of the deposited data

Results flagged for a closer look

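Ccnd3 lay on both sides of the adult control after PHx: its ratio was 1.21 after 24 h, 0.756 after 48 h and 0.544 after 96 h, each with a counting interval that excludes 1. The difference between the times was not tested, since each is 1 library.

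The free RNA of near-empty droplets, which is outside the gated cells, also held more of the members than that of the adult control. By the same 2-fold rule 7 of 8 usable members were higher at P14, 8 of 9 at 24 h, 8 of 10 at 48 h and 3 of 5 at 96 h (Ccnd1, Ccnb2 and Cdk1), where 9.06%, 12.1%, 11.5% and 6.5% of all genes were higher in free RNA. Ccnd1 was at 204 CPM in the free RNA at 24 h and 20.4 CPM in that of the adult control, and Cdk1 at 95.6 CPM at 48 h and 3.29 CPM in the adult control. Unlike in hepatocytes, Ccnd2 was among the higher members at 24 and 48 h, at 6.71 and 14.3 CPM against 2.70 CPM, and Cdk4 at P14 and 24 h, at 39.7 and 46.6 CPM against 19.4 CPM.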

How the results depend on the processing

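No paired analysis was possible because each group has 1 library. Leaving out a replicate was likewise impossible. Over the alternatives run, the highest share of positive cells was at 24 h for Ccnd1 and Ccne2 and at 48 h for Ccna2, Ccnb1, Ccnb2 and Cdk1 in 14 of 14 settings, and at 24 h for Ccne1 in 12 of 14. Of the counts of members called higher or lower, 156 kept within 1.5 times and 12 did not. A filter of 50 CPM, which leaves 1, 4, 1 and 1 usable members, gave 1 higher at 24 h, 4 at 48 h, 1 at 96 h and 1 at P14. From 24 to 48 h, 2 members were higher in place of 4 (without Ccna2 and Cdk1) with a pseudocount of 10 CPM, and 2 when cells with any other class's markers were left out. The count lower from 24 to 48 h was 1 in place of 3 with a pseudocount of 10 CPM, a filter of 50 CPM, at least 3% Alb, Apoa1 and Ttr UMIs, or marker-bearing cells left out, and that from 48 to 96 h was 3 and 2 in place of 5 with the pseudocount and the filter. Leaving out marker-bearing cells leaves 43 of 719 cells at 48 h; without counting erythroid and neutrophil markers, an alternative chosen after seeing the data, 697 remain. The log2 ratio of Ccne1 from 24 to 48 h was 0.00444 with those cells left out.

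The Ccnd1 share at 24 h (66.2%) was 63.0% with 10% to 20% mitochondrial UMIs, 62.2% with no lower mitochondrial limit, 59.0% with at least 3% Alb, Apoa1 and Ttr UMIs, 91.4% without thinning, 88.4% at 10000 UMIs and 36.4% when 2 UMIs were asked for. The Ccnb1 share at 48 h (19.5%) was 23.3% with marker-bearing cells left out, 41.6% without thinning, 31.1% at 10000 UMIs and 6.40% with 2 UMIs. With marker-bearing cells left out (43 cells remain), the Cdk1 share at 48 h went the other way, 11.6% in place of 21.3%. The odds ratio of Ccnb1 and Ccnb2 at 48 h (6.29) was 33.7 without thinning, 11.8 at 10000 UMIs and 12.0 with 10% to 20% mitochondrial UMIs.

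That last limit leaves 116 cells at 48 h and 53 at 96 h. Under it the log2 ratio of Ccnd1 in B-type-positive cells was -0.29 in place of -0.75 at 48 h (34 positive cells) and 0.0957 at 96 h (2 positive cells), the odds ratio of Ccnd1 and Cdk1 at 48 h was 1.20, and the log2 ratio of Ccnd3 at 24 h was -0.0136. With 2 UMIs for the split that of Ccnd3 was -0.0779. The causes were not tested beyond the cell numbers. Depth limits the low libraries: Ccnd2 had 12 UMIs at 96 h, and Ccnb1, Ccna2, Ccne2, Ccnb2 and Ccne1 had 17 to 32 in the adult control.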

Other observations

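Hepatocytes differ along the liver lobule, and the members were also read along that axis. Cells of each library were ranked by the thinned UMIs of 10 pericentral genes (such as Glul and Cyp2e1) over those of 10 periportal genes (such as Cyp2f2 and Hal), lists written after the files had been seen, and cut into 3 groups of equal size. At 96 h the mitotic members were higher in the pericentral group: Ccnb1 at 34.9 against 4.61 CPM in the periportal group, a ratio of 7.56 (4.70 to 12.9), Ccnb2 at 55.2 against 9.47 CPM (5.84, 4.16 to 8.38), Ccna2 4.00 (2.59 to 6.42) and Cdk1 2.87 (1.97 to 4.28). Ccnd1 was at 142 against 64.3 CPM, a ratio of 2.21 (1.92 to 2.56). The pericentral group was the deeper one, with a median of 26247 against 19600 UMIs, and the part of depth was not tested. Only 20 of the 771 cells had a thinned Ccnb1 UMI, and the 10% with the most held 100% of its UMIs. The intervals do not cover this gathering, and the cells with a UMI were not counted by group.

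At 24 h the member with the largest such ratio was Ccne2, at 35.4 against 9.29 CPM (3.81, 2.86 to 5.16), with Ccnb1 at 2.08, Ccnb2 at 2.03, Ccne1 at 1.92 (1.49 to 2.48), Cdk1 at 1.80, Ccna2 at 1.79 and Ccnd1 at 1.33 (1.26 to 1.42). Ccnd1 was highest in the middle group there, at 424 CPM, against 389 pericentral and 292 periportal. At 48 h and P14 the B-type cyclins lay the other way, with ratios of 0.579 and 0.577 for Ccnb2 and 0.722 and 0.710 for Ccnb1, while Ccna2 and Cdk1 were at 0.969 and 0.960 at 48 h and 0.640 and 0.633 at P14. In the adult control the ratio was 5.78 (1.29 to 53.2) for Ccna2, from 12 and 2 UMIs, and 5.14 (1.47 to 27.5) for Ccnb2, from 16 and 3 UMIs. There the intervals of Ccnb1 (0.412 to 11.9) and Cdk1 (0.458 to 2.99) included 1. The difference between times was not tested, since each is 1 library.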
